A study of Mus musculus with 46 samples.

Results

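The TAM receptors *Axl*, *Mertk* and *Tyro3* and their ligands *Gas6* and *Pros1* were followed across 3 RNA sequencing experiments on mice in which microglia were removed with PLX3397 and allowed to return. The 5 genes were chosen by name, with earlier results of these data known. *Axl* was picked for its rise in repopulated cells. Its levels in repopulated cells, against control cells and over time after LPS, are therefore given as a description without a test. In SVZ (subventricular zone) tissue all 5 of them were among the 15695 genes analysed, in the WM and LPS experiment 4 of them were among 15285 genes, and in the GLOBAL experiment all 5 were among 19930 genes. *Tyro3* was not analysed here in the WM and LPS experiment.

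All mice were wild-type C57BL/6, about 2 months old at treatment, and carried no transgene. PLX3397, which blocks CSF1R, the receptor whose signal keeps microglia alive, and also acts on KIT and FLT3, was given in chow at 600 ppm, and control mice received vehicle. SVZ tissue was taken from control mice, from mice at the end of 14 days of PLX3397, and from mice that had 14 days of PLX3397 and then 5 days of recovery on control diet (n = 5 libraries each). In the WM and LPS experiment, WM repopulating cells came from mice with 14 days of PLX3397 and 28 days of recovery, and were sorted beside control microglia as CD11b+CD45int cells from brain. The cells labelled 0 hr came from mice that received no LPS (WM n = 4, control n = 3), and the others were taken at 6 hr (WM n = 4, control n = 5) and 24 hr (n = 4 each) after an intraperitoneal injection of LPS (0.33 mg/kg), the bacterial cell wall product used as an inflammatory stimulus. In the GLOBAL experiment, cells of the same gate came from control mice (n = 4) and from mice with 7 days of PLX3397 and 28 days of recovery (n = 3). The gate admits any CD11b+ cell with intermediate CD45, so it sets a population and not an origin, and WM repopulating and GLOBAL cells are those labelled AltRepop and RegularRepop. Replicates are separate libraries, so p-values measure the spread between libraries, which may in part be technical.

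AXL, MERTK and TYRO3 are receptor tyrosine kinases that recognise phosphatidylserine on apoptotic cells through the bridging proteins GAS6 and protein S (the product of *Pros1*), and they couple uptake of dying cells to a brake on inflammatory signaling. GAS6 binds all of the receptors, whereas protein S acts through MERTK and TYRO3. In the brain, microglia use MERTK under resting conditions, AXL is known as a receptor that rises in activated microglia, and TYRO3 is mostly found in neurons and other neural cells. Both ligands need vitamin K dependent carboxylation to bind phosphatidylserine.

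Values are given in FPKM as deposited, that is, read numbers divided by transcript length and library size, so levels of different genes can be set side by side within a table, and the 3 tables were normalized separately and are not compared with each other. Between 4.44 M and 10.2 M reads stood behind a library of SVZ tissue (median 7.94 M), between 4.58 M and 10.3 M behind a library of the WM and LPS experiment (median 6.58 M), and between 1.91 M and 5.04 M behind a library of the GLOBAL experiment (median 3.03 M). Microglial markers were high in every sorted library, where the 9 listed genes summed to between 7053 and 23802 FPKM. RNA of neutrophils, summed over 6 marker genes, was also present in every sorted library, at 421 to 15175 FPKM in the WM and LPS experiment and at 1282 to 23074 FPKM in the GLOBAL experiment. A single control library of SVZ tissue (replicate 1) held choroid plexus RNA, with 21569 FPKM summed over 6 choroid plexus and ependyma genes against 46.8 to 148 FPKM in the other 14 libraries. One control library at 6 hr after LPS (replicate 2) stood apart with 1238 FPKM of *Il1b* against 87.5 to 131 FPKM in the other 4 of its group. Where a difference of a member is given without one of these libraries, the library is named, and values of genes that are not members include both.

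In control microglia *Mertk*, *Gas6* and *Pros1* moved in the same direction after LPS, and *Axl* did not pass the test there. In WM repopulating cells all 4 had a lower mean at 6 hr than at 0 hr, with *Axl* not tested. The sequences that precede these 4 genes, which were measured in all sorted cells, are shown here as a description. They are the 250 bases before the start of each gene in RefSeq, read 5′ to 3′ on the strand of the gene in build GRCm38.p6. *Axl* lies on chromosome 7 (25757273 to 25788705, minus strand, GENCODE M21, GRCm38), *Mertk* on chromosome 2 (128698956 to 128802894, plus strand), *Tyro3* also on chromosome 2 (119797733 to 119818104, plus strand), *Gas6* on chromosome 8 (13465374 to 13494490, minus strand) and *Pros1* on chromosome 16 (62854307 to 62929346, plus strand). Capitals mark matches on either strand to a GC box (GGGCGG), a PU.1 core (GAGGAA) or a STAT element (TTCNNNGAA). The stretches are chr7:25788734-25788983 for *Axl*, chr2:128698665-128698914 for *Mertk*, chr8:13494536-13494785 for *Gas6* and chr16:62854057-62854306 for *Pros1*.
Axl: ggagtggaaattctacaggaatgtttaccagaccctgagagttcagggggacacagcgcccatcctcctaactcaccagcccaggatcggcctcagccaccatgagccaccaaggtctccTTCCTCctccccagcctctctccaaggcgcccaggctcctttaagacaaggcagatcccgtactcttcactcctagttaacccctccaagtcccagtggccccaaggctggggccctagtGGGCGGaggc
Mertk: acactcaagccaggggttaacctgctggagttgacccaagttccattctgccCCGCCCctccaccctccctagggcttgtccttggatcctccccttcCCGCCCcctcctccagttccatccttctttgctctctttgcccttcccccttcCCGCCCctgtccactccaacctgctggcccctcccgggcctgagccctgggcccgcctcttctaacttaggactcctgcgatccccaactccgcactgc
Gas6: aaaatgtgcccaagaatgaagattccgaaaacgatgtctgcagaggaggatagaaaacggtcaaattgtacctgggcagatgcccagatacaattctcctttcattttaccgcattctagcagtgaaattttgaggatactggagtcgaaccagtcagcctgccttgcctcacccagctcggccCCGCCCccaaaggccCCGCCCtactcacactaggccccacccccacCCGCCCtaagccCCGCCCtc
Pros1: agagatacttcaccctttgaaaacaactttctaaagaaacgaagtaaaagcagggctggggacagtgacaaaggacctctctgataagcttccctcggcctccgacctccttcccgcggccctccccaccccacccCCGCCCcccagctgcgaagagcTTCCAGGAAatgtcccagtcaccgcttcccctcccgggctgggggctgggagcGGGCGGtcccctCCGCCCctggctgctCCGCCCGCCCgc
GC boxes were found once before *Axl*, 3 times before *Mertk*, 4 times before *Gas6* and 5 times before *Pros1*, where the last 2 overlap, and 32.7% of the 32851 RefSeq promoters held at least 1 in the same window. The PU.1 core had its only match among these genes before *Axl* (23.3% of all promoters), and the STAT element before *Pros1* (7.02% of all promoters). No match was found to the AP-1 element (TGANTCA, 6.75% of all promoters) or to the interferon response element (2.98%) in these windows. These are matches of letters only and say nothing about binding.

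*Axl*, the receptor chosen for its rise, was low in control microglia and higher in all WM repopulating libraries. Before LPS, control microglia had 4.95, 5.54 and 5.58 FPKM of *Axl*, and WM repopulating cells had 35.1, 27.5, 28.9 and 30.8 FPKM. At 6 hr after LPS, control microglia were at 6.36, 6.50, 3.39, 7.10 and 2.74 FPKM and WM repopulating cells at 12.8, 22.2, 10.1 and 16.5 FPKM. At 24 hr, control microglia were at 4.74, 6.24, 3.33 and 1.74 FPKM and WM repopulating cells at 31.6, 30.5, 33.3 and 22.5 FPKM. The groups did not overlap at any time, which is what the gene was chosen for (at 0, 6 and 24 hr, 7.61, 2.11 and 5.76% of all genes were without overlap in that direction), and the lowest WM repopulating library of all (10.1 FPKM, at 6 hr) was still above the highest control library of all (7.10 FPKM, also at 6 hr). The ratios of mean FPKM were 5.71 at 0 hr, 2.95 at 6 hr and 7.35 at 24 hr. *Axl* rested on 54 to 1667 reads per library in these cells, so that counting error is largest in the control libraries. Marker sums of other cell types also differed between WM repopulating cells and control microglia. Sums without overlap at 0 hr were those of 3 choroid plexus and ependyma genes (281 to 738 against 75.0 to 222 FPKM), 7 astrocyte genes (38.1 to 52.5 against 55.6 to 61.7 FPKM), 3 endothelial genes (2.28 to 5.19 against 8.24 to 12.9 FPKM) and 3 oligodendrocyte precursor genes (0.393 to 0.546 against 0.0221 to 0.112 FPKM, with 1 of the 3 at 0 throughout the control group). The precursor genes stayed apart at 6 hr (1.64 to 4.04 against 0.0567 to 0.508 FPKM) and at 24 hr (0.716 to 1.15 against 0.132 to 0.278 FPKM). At 24 hr the sums of 8 border-associated macrophage genes (26.4 to 49.7 against 67.4 to 89.4 FPKM), the choroid plexus and ependyma genes (11.8 to 32.5 against 35.8 to 55.8 FPKM, opposite in direction to 0 hr), the endothelial genes (1.32 to 7.15 against 7.59 to 12.6 FPKM) and 3 neuroblast genes (1.35 to 1.95 against 3.52 to 7.09 FPKM) were apart as well. The part of these cells in the *Axl* values was not tested.

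In order of mean level, *Axl* stood at 30.6 ± 3.34 FPKM in WM repopulating cells at 0 hr and 29.5 ± 4.77 at 24 hr (SD, n = 4 each), which overlap, then at 15.4 ± 5.26 at 6 hr (n = 4), and then at 5.35 ± 0.354 (n = 3), 5.22 ± 2.0 (n = 5) and 4.01 ± 1.93 (n = 4) in control microglia at 0, 6 and 24 hr, which overlap with each other. Within the WM repopulating cells, the difference of *Axl* on the log2(FPKM + 1) scale was -0.996 at 6 hr against 0 hr (SE 0.27) and 0.94 at 24 hr against 6 hr (SE 0.27), given without a test for the reason above. All 4 libraries at 6 hr were below all 4 at 0 hr and below all 4 at 24 hr. In control microglia, the change of *Axl* was -0.10 at 6 hr (95% interval -0.67 to 0.48, adjusted p = 0.807, limma) and -0.43 at 24 hr (-1.03 to 0.17, adjusted p = 0.319), where it was -0.17 without control replicate 4 at 24 hr (adjusted p = 0.723). The difference between these responses at 6 hr was -0.90 (SE 0.39) on the same scale, WM repopulating minus control. It is given without a test because it uses the levels for which *Axl* was chosen. The control levels are part of that choice, so the tests of *Axl* within control microglia are to be read as a description too.

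**Figure D1:**
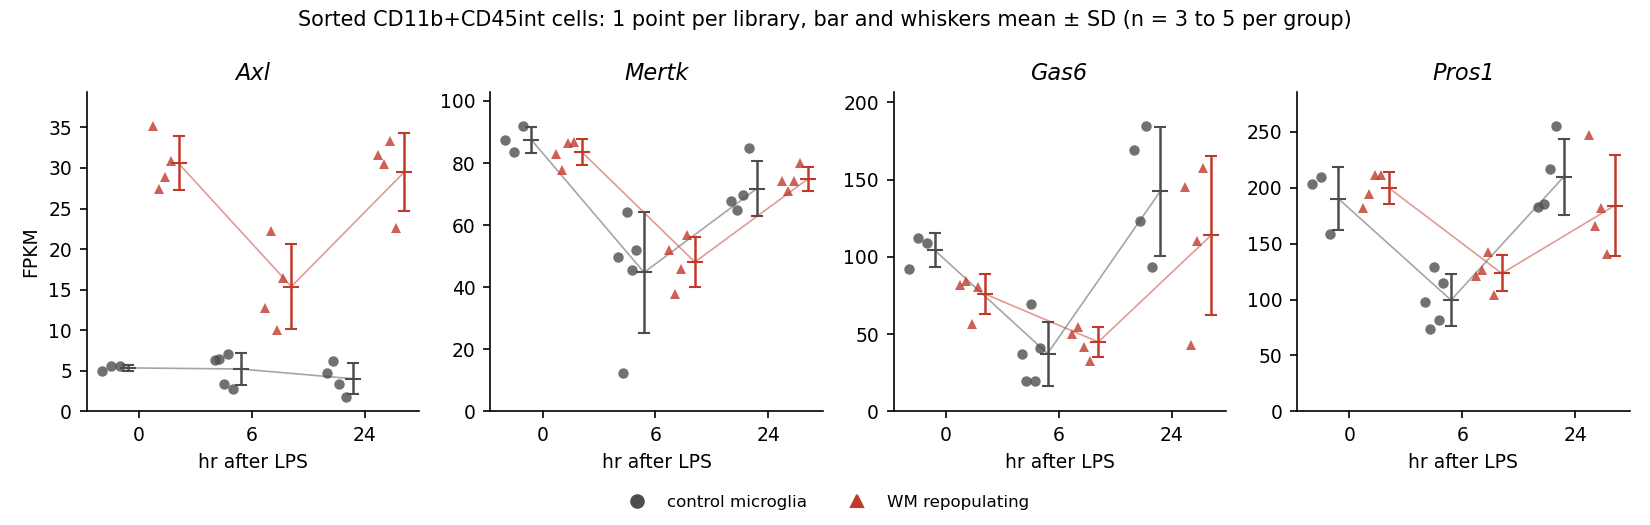
FPKM (vertical axis, linear from 0) of *Axl*, *Mertk*, *Gas6* and *Pros1* at 0, 6 and 24 hr after LPS in control microglia (grey circles) and WM repopulating cells (red triangles), with a point per library and a bar with whiskers for mean ± SD. *Axl* is the only panel in which the 2 cell groups stand apart at every time, and the other 3 genes dip at 6 hr in both.

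*Mertk*, the receptor that microglia use at rest, was above *Axl* by FPKM in every library of the WM and LPS experiment, and its levels overlapped between the cell groups. Control microglia had 87.3, 83.4 and 91.9 FPKM at 0 hr, 49.7, 12.3, 64.1, 45.6 and 52.1 at 6 hr, and 67.9, 64.9, 69.6 and 84.8 at 24 hr. WM repopulating cells had 82.8, 77.8, 86.6 and 86.9 FPKM at 0 hr, 51.8, 37.8, 45.9 and 56.8 at 6 hr, and 74.1, 71.0, 74.1 and 80.2 at 24 hr. All libraries at 6 hr were below all libraries at 0 hr and at 24 hr of the same cell group, and the 2 cell groups overlapped at each time. In order, the means were 87.5 ± 4.22 (control, 0 hr), 83.5 ± 4.25 (WM, 0 hr), 74.8 ± 3.85 (WM, 24 hr), 71.8 ± 8.92 (control, 24 hr), 48.1 ± 8.18 (WM, 6 hr) and 44.8 ± 19.4 FPKM (control, 6 hr), where WM repopulating cells and control microglia of the same time are neighbours that do not differ beyond their spread.

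*Gas6*, the ligand of all TAM receptors, was lower at 6 hr in control microglia, at 0.359 of its mean FPKM at 0 hr. The control libraries had 91.9, 112 and 109 FPKM at 0 hr, 37.2, 19.3, 69.7, 19.4 and 41.3 at 6 hr, and 169, 123, 185 and 93.6 at 24 hr. WM repopulating cells had 81.7, 84.1, 56.8 and 80.6 FPKM at 0 hr, 50.3, 54.6, 41.9 and 32.8 at 6 hr, and 145, 42.7, 111 and 158 at 24 hr. The libraries at 6 hr did not overlap with those at 0 hr in either cell group, and the spread at 24 hr was wide, with 1 WM repopulating library (replicate 2, 42.7 FPKM) within the range of the 6 hr libraries. At 0 hr, every WM repopulating library was below every control library, from 56.8 to 84.1 against 91.9 to 112 FPKM.

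*Pros1*, which encodes protein S, had the highest mean FPKM of the 4 genes in all groups of the WM and LPS experiment. It stood at 203, 210 and 158 FPKM in control microglia at 0 hr, at 97.5, 73.8, 129, 81.7 and 115 at 6 hr, and at 182, 185, 217 and 255 at 24 hr. In WM repopulating cells it stood at 182, 195, 211 and 211 FPKM at 0 hr, at 121, 126, 143 and 104 at 6 hr, and at 247, 166, 182 and 141 at 24 hr. In both cell groups the 6 hr libraries were below all 0 hr libraries, and in WM repopulating cells the lowest 24 hr library (141 FPKM) was just below the highest 6 hr library (143 FPKM). The ratio of *Gas6* to *Pros1* FPKM was 0.558 ± 0.119 in control microglia at 0 hr (SD, n = 3), 0.356 ± 0.119 at 6 hr (n = 5) and 0.702 ± 0.249 at 24 hr (n = 4), and in WM repopulating cells it was 0.383 ± 0.0815, 0.365 ± 0.0702 and 0.642 ± 0.355 (n = 4 each).

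The first question was what LPS did to these genes in control microglia. At 6 hr, 3 of the 4 measured members were lower than at 0 hr, where 21.1% of the 12684 tested genes were called lower and 42.5% were called in either direction. The change on the log2(FPKM + 1) scale was -1.13 for *Mertk* (SE 0.30, adjusted p = 0.00372, limma), -1.61 for *Gas6* (SE 0.37, adjusted p = 0.000993) and -0.95 for *Pros1* (SE 0.18, adjusted p = 0.000174), while *Axl* did not pass. These 3 genes were also without overlap between the times, as were 18.6% of all genes in that direction. From 6 to 24 hr, the same 3 genes were higher, by 0.84 for *Mertk* (SE 0.27, adjusted p = 0.0239), 2.02 for *Gas6* (SE 0.34, adjusted p = 9.24e-05) and 1.09 for *Pros1* (SE 0.17, adjusted p = 3.56e-05), where 15% of all tested genes were called higher, and all 3 were without overlap, as were 11.1% of all genes in that direction. At 24 hr, no member passed against 0 hr, where limma called 21.3% of all genes, and none of the 4 had an unadjusted p under 0.05, as 33.5% of all genes did. The 95% intervals at 24 hr against 0 hr ran from -0.93 to 0.36 for *Mertk*, from -0.39 to 1.19 for *Gas6* and from -0.25 to 0.53 for *Pros1*. Without control replicate 2 at 6 hr, which had the lowest *Mertk* of the 24 libraries of this experiment, the fall of *Mertk* at 6 hr was -0.73 (adjusted p = 0.000125), that of *Gas6* -1.42 (adjusted p = 0.00296) and that of *Pros1* -0.85 (adjusted p = 0.000465). With a fit of only the 2 groups in question, *Mertk* did not pass at 6 hr (adjusted p = 0.0624) or from 6 to 24 hr (adjusted p = 0.143). From 6 to 24 hr, *Mertk* was higher by 0.44 (adjusted p = 0.0109), *Gas6* by 1.83 (adjusted p = 0.000309) and *Pros1* by 0.99 (adjusted p = 0.0001) without control replicate 2 at 6 hr, and *Mertk* missed the threshold without control replicate 4 at 24 hr (0.76, adjusted p = 0.0684).

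WM repopulating cells were asked the same question. At 6 hr, *Mertk* and *Pros1* were lower than at 0 hr (2 of the 3 members tested, where 19.5% of all genes were called lower), with log2 fold changes of -0.80 for *Mertk* (SE 0.29, adjusted p = 0.0316, limma) and -0.70 for *Pros1* (SE 0.18, adjusted p = 0.00281). *Gas6* had all 4 libraries at 6 hr below those at 0 hr but did not pass (-0.75, SE 0.35, adjusted p = 0.0986), and it passed with a fit of only the 2 groups in question (adjusted p = 0.00315). All 3 members were without overlap between 6 and 0 hr, as were 20.5% of all genes in that direction. The call of *Mertk* was lost without any 1 of 5 libraries, namely replicates 1, 3 and 4 at 0 hr and replicates 2 and 3 at 6 hr, where the adjusted p was between 0.0545 and 0.0953. From 6 to 24 hr, *Gas6* (1.19, SE 0.35, adjusted p = 0.0232) and *Pros1* (0.55, SE 0.18, adjusted p = 0.0338) were higher (2 of 3, where 8.19% of all genes were called higher), and *Mertk* missed the threshold (0.64, SE 0.29, adjusted p = 0.137) but passed with a fit of only these 2 groups (adjusted p = 0.00642). Of the 3, *Mertk* alone was without overlap between 6 and 24 hr, as were 12.3% of all genes in that direction. That count of 2 was 0 without replicate 4 at 6 hr, replicate 1 at 24 hr or replicate 3 at 24 hr, and 1 without replicate 1, 2 or 3 at 6 hr or replicate 4 at 24 hr. At 24 hr, limma called no member against 0 hr (0 of 3, also 0 of 3 at an unadjusted p under 0.05), where 18.8% of all genes were called and 31.3% had an unadjusted p under 0.05.

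**Figure D2:**
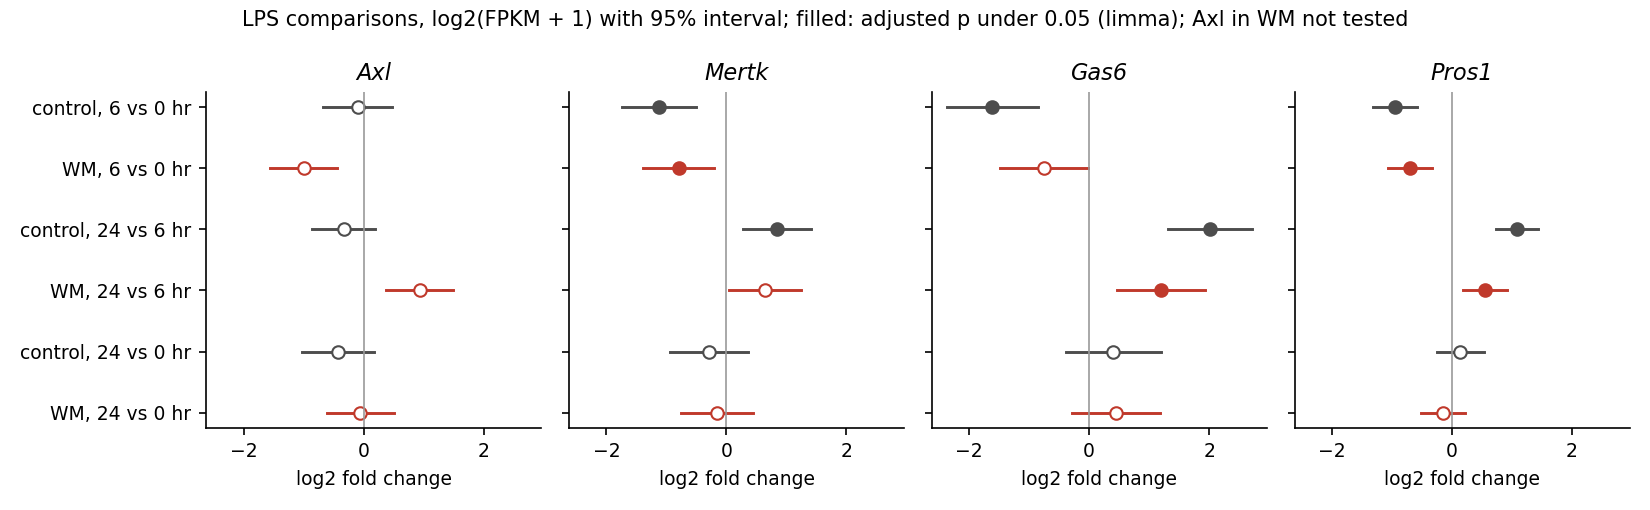
Log2 fold change on the log2(FPKM + 1) scale (horizontal axis) with its 95% interval for 6 comparisons between times after LPS, in control microglia (grey) and WM repopulating cells (red), with filled points for an adjusted p under 0.05 (*Axl* in WM repopulating cells was not tested and has open points). *Mertk*, *Gas6* and *Pros1* lie to the left at 6 hr and to the right from 6 to 24 hr in both cell groups, and *Axl* does so in WM repopulating cells.

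Other genes moved with these changes. Of the 9 microglial markers, 8 were called lower at 6 hr in control microglia and 8 in WM repopulating cells, and their summed FPKM went from 20396 to 23802 at 0 hr to 7053 to 9402 at 6 hr in control microglia, and from 20255 to 23714 at 0 hr to 7951 to 9464 at 6 hr in WM repopulating cells. Of 6 monocyte markers, 5 were called higher at 6 hr in each cell group, with sums of 102 to 331 FPKM at 0 hr and 1163 to 2284 FPKM at 6 hr in control microglia, and 128 to 397 and 1166 to 3220 FPKM in WM repopulating cells. Neutrophil markers were called for 0 of 6 genes in control microglia and for 5 of 6, all lower, in WM repopulating cells at 6 hr, where the sums were 421 to 10229 FPKM against 2879 to 10858 FPKM at 0 hr. Of 7 tested border-associated macrophage markers, 5 were called lower and 1 higher at 6 hr in control microglia, and 2 lower and 1 higher in WM repopulating cells. From 6 to 24 hr, 6 of the 9 microglial markers were called higher in control microglia (sums of 10613 to 14476 FPKM at 24 hr), and 3 higher and 1 lower in WM repopulating cells (9914 to 14497 FPKM). Monocyte sums were 434 to 555 FPKM at 24 hr in control microglia and 141 to 671 FPKM in WM repopulating cells, and neutrophil sums 6354 to 15175 and 3168 to 7178 FPKM. The 3 choroid plexus and ependyma genes summed to 99.2 to 1366 FPKM at 6 hr and 35.8 to 55.8 FPKM at 24 hr in control microglia, where replicate 1 at 6 hr stood apart at 1366 FPKM against 99.2 to 345 FPKM, and to 160 to 605 and 11.8 to 32.5 FPKM in WM repopulating cells. Without that replicate, *Mertk*, *Gas6* and *Pros1* were called in the same directions in control microglia at 6 hr and from 6 to 24 hr. None of these markers was at 0 throughout a group, and the part of these cells in the member values was not tested.

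The second question was whether WM repopulating cells differed from control microglia in the TAM genes other than *Axl*. By limma, none of *Mertk*, *Gas6* and *Pros1* was called at 0 hr (0 of 3, where 1.21% of all genes were called), at 6 hr (0 of 3, against 0.323%) or at 24 hr (0 of 3, against 3.97%), and none had an unadjusted p under 0.05 at any of these times, as 11.9, 9.18 and 17.6% of all genes did. *Mertk* differed by -0.07 at 0 hr (95% interval -0.71 to 0.58, adjusted p = 0.966), by 0.26 at 6 hr (-0.30 to 0.83) and by 0.07 at 24 hr (-0.53 to 0.66). *Gas6* differed by -0.47 at 0 hr (-1.26 to 0.33, adjusted p = 0.679), 0.40 at 6 hr (-0.30 to 1.09) and -0.43 at 24 hr (-1.16 to 0.30). *Pros1* differed by 0.08 at 0 hr (-0.31 to 0.47, adjusted p = 0.925), 0.33 at 6 hr (-0.01 to 0.67) and -0.21 at 24 hr (-0.57 to 0.16). At 0 hr, *Gas6* was the only one of the 3 without overlap between the cell groups, and 6.01% of all genes were without overlap in that direction. Without control replicate 2 at 6 hr, *Mertk* differed by -0.14 at 6 hr in place of 0.26 (adjusted p = 0.953), *Gas6* by 0.21 (adjusted p = 0.995) and *Pros1* by 0.23 (adjusted p = 0.900). *Gas6* ranged from 0.207 to 0.657 at 6 hr over the alternatives, and from -0.635 to -0.0152 at 24 hr, where the value nearest to 0 was that without WM replicate 2 at 24 hr (adjusted p = 0.989). *Pros1* ranged from -0.357 (without WM replicate 1 at 24 hr, adjusted p = 0.302) to -0.0890 at 24 hr, and *Mertk* from -0.131 to -0.0327 at 0 hr and from 0.0197 to 0.147 at 24 hr.

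The responses to LPS of the 2 cell groups were also compared directly. At 6 hr, the difference of the responses (WM repopulating minus control) was 0.33 for *Mertk* (SE 0.42, adjusted p = 0.881), 0.86 for *Gas6* (SE 0.51, adjusted p = 0.748) and 0.25 for *Pros1* (SE 0.25, adjusted p = 0.847) on the log2 scale. Without control replicate 2 at 6 hr it was -0.07 for *Mertk* (adjusted p = 0.973), 0.67 for *Gas6* (adjusted p = 0.854) and 0.15 for *Pros1* (adjusted p = 0.941). At 24 hr it was 0.13 for *Mertk* (SE 0.43, adjusted p = 0.964), 0.04 for *Gas6* (SE 0.52, adjusted p = 0.991) and -0.28 for *Pros1* (SE 0.26, adjusted p = 0.801). By limma, 0 of 3 members passed at either time, none of them had an unadjusted p under 0.05 (7.2 and 8.71% of all genes did), and 0.0237% and 0.0867% of all genes were called at 6 and 24 hr. Over the alternatives, *Pros1* ranged from 0.154 to 0.379 at 6 hr and from -0.434 to -0.156 at 24 hr, and *Mertk* from 0.0874 to 0.215 at 24 hr. A difference between the cell groups in how *Mertk*, *Gas6* or *Pros1* responded was thus not detectable with 3 to 5 libraries per group.

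The make-up of the receptors in the sorted cells differed with *Axl*. Its share of the summed *Axl* and *Mertk* FPKM was 5.36, 6.23 and 5.72% in control microglia at 0 hr, and 29.8, 26.1, 25.02 and 26.2% in WM repopulating cells. At 6 hr the shares were 11.4, 34.6, 5.03, 13.5 and 4.998% in control microglia and 19.8, 37.0, 17.98 and 22.5% in WM repopulating cells, which overlap through control replicate 2 alone, a library with 12.3 FPKM of *Mertk*. At 24 hr they were 6.52, 8.78, 4.57 and 2.01% against 29.9, 30.1, 31.0 and 21.9%. The summed receptor FPKM was 92.9 ± 4.27 in control microglia (SD, n = 3) and 114 ± 5.99 in WM repopulating cells (n = 4) at 0 hr, 49.98 ± 18.3 (n = 5) and 63.5 ± 7.44 (n = 4) at 6 hr, and 75.8 ± 7.23 and 104 ± 2.72 at 24 hr (n = 4 each). At 6 hr these sums overlapped, from 18.8 to 67.5 against 56.0 to 73.3 FPKM. These shares contain the *Axl* values for which the gene was chosen and are given without a test.

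**Figure D3:**
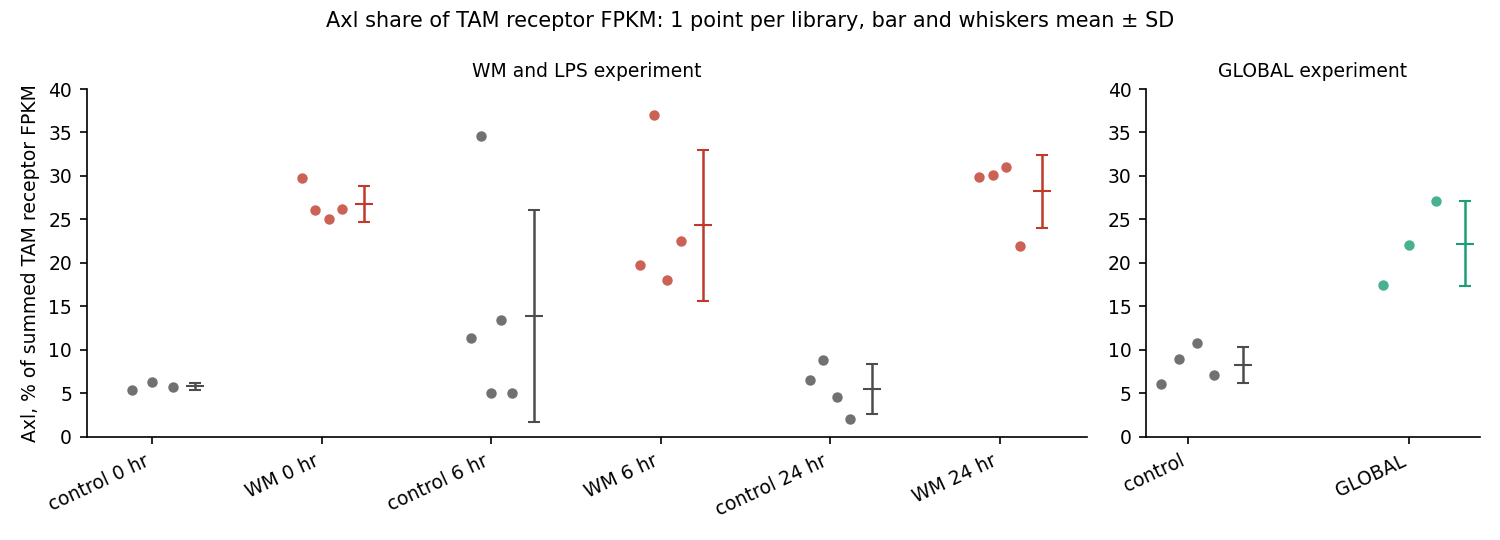
Share of *Axl* in the summed FPKM of the TAM receptors (vertical axis, %), by library, with mean ± SD, for the WM and LPS experiment (*Axl* and *Mertk*) and the GLOBAL experiment (*Axl*, *Mertk* and *Tyro3*). Control libraries (grey) lie between 2.01 and 13.5% except control replicate 2 at 6 hr at 34.6%, and repopulated libraries (red, green) lie between 17.4 and 37.0%.

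In the GLOBAL experiment, after a shorter course of PLX3397, *Axl* was again higher in repopulated cells. Control cells had 8.52, 11.3, 15.3 and 8.67 FPKM of *Axl*, and GLOBAL repopulated cells had 27.4, 38.9 and 45.1 FPKM. The groups did not overlap, with a ratio of mean FPKM of 3.39, and the values are a description as above. By the log2(FPKM + 1) scale the difference was 1.68 (SE 0.23), beside 2.31 (SE 0.29) for WM repopulating cells at 0 hr. The 2 experiments were normalized separately and had their own controls, so the difference between these values was not tested.

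For *Mertk*, *Gas6* and *Tyro3* the GLOBAL repopulated and control libraries overlapped, and for *Pros1* they lay next to each other. *Mertk* was at 131, 116, 125 and 113 FPKM in control and at 130, 136 and 121 in repopulated cells. *Gas6* was at 91.9, 71.3, 96.0 and 122 FPKM in control and at 87.0, 72.3 and 66.4 in repopulated cells. *Pros1* was at 76.9, 68.6, 62.7 and 75.8 FPKM in control and at 81.4, 78.3 and 82.5 in repopulated cells, where every repopulated library was above every control library. *Tyro3*, the receptor known from neural cells, was barely present, at 1.26, 0.57, 2.0 and 0.62 FPKM in control and at 0.370, 1.21 and 0.323 in repopulated cells, and rested on 4 to 26 reads per library. *Mertk* alone therefore made up 91.0 ± 2.35% of the receptor FPKM in control cells (SD, n = 4) and 77.4 ± 4.86% in repopulated cells (n = 3), and *Axl* 8.20 ± 2.08% and 22.2 ± 4.88%.

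**Figure D4:**
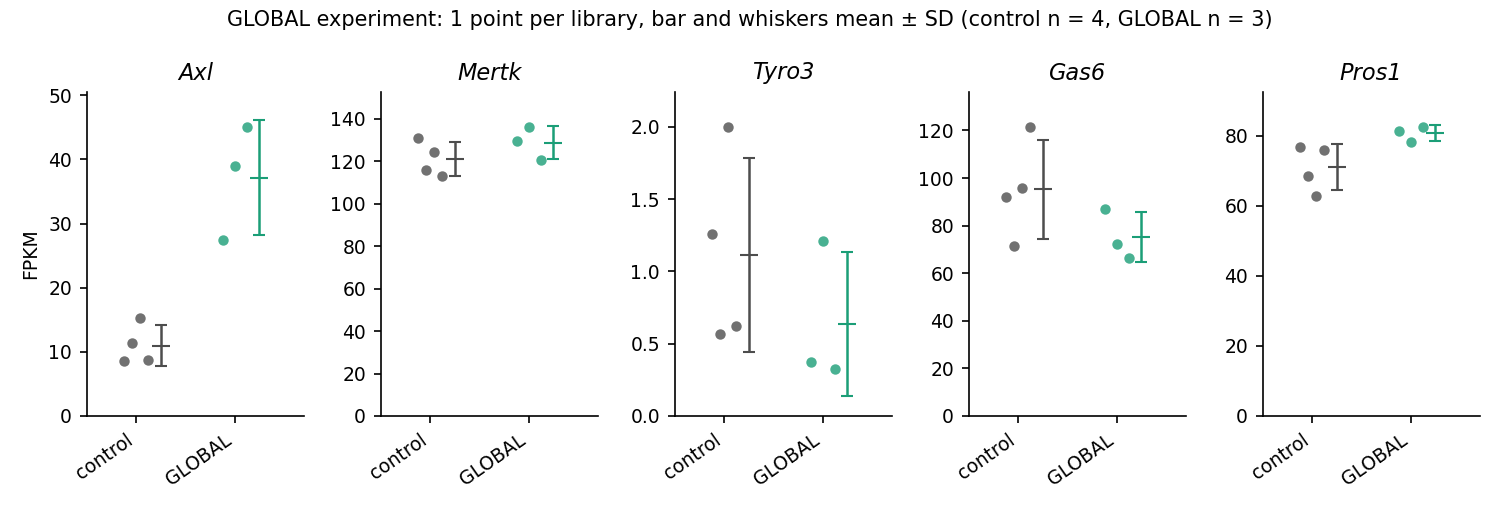
FPKM (vertical axis, linear from 0, scaled per gene) of the 5 genes in control (grey, n = 4) and GLOBAL repopulated cells (green, n = 3), with a point per library and a bar with whiskers for mean ± SD. *Axl* and *Pros1* are the genes in which the groups do not overlap, and *Tyro3* does not exceed 2.0 FPKM.

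By limma, 0 of the 4 members other than *Axl* were called in GLOBAL repopulated cells, but 0% of all 16651 tested genes were called too, with 0 of 4 members and 1504 genes (9.03%) at an unadjusted p under 0.05. *Mertk* differed by 0.09 (95% interval -0.18 to 0.36, adjusted p = 0.841), *Gas6* by -0.32 (-0.72 to 0.08, adjusted p = 0.620), *Pros1* by 0.19 (-0.09 to 0.47, adjusted p = 0.669) and *Tyro3* by -0.36 (-1.02 to 0.30, adjusted p = 0.726). Over the alternatives these values ranged from 0.0147 to 0.135, from -0.448 to -0.194, from 0.123 to 0.227 and from -0.758 to -0.190, in the same order. The absence of overlap of *Pros1* is shared by 5.83% of all genes in that direction. Neutrophil markers summed to 23074, 13959, 2537 and 2145 FPKM in the control libraries and to 4646, 2777 and 1282 FPKM in the repopulated libraries, and monocyte markers to 172 to 944 against 104 to 319 FPKM. Sums without overlap were those of 8 border-associated macrophage genes (42.4 to 58.5 in control against 19.8 to 34.4 FPKM) and 7 astrocyte genes (31.6 to 33.8 against 25.3 to 29.6 FPKM). Their part in the member values was not tested.

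In SVZ tissue the question was whether the TAM genes followed the loss and early return of microglia. The microglial markers did, with a sum of 244 ± 27.9 FPKM in control, 18.2 ± 1.31 at 14 day PLX3397 and 29.6 ± 3.0 at 5 day recovery (SD, n = 5 each), which is 7.45 ± 0.536% and 12.1 ± 1.23% of control, and the sums did not overlap between any of the groups. The TAM genes stayed between 73.3% and 104% of control by mean. In bulk tissue, fewer cells of a type and less RNA per cell cannot be told apart, and the cells that carry the TAM transcripts are not resolved. Other marker sums also moved with the groups. Those of 5 border-associated macrophage genes were 5.57 ± 1.59, 1.73 ± 0.521 and 2.22 ± 0.699 FPKM, those of 2 neutrophil genes 1.66 ± 1.08, 1.44 ± 1.74 and 7.75 ± 5.59 FPKM, those of 3 oligodendrocyte precursor genes 14.8 ± 1.70, 6.39 ± 1.001 and 7.77 ± 1.81 FPKM, those of 4 erythrocyte genes 54.8 ± 22.3, 50.2 ± 7.27 and 181 ± 103 FPKM, and those of 7 astrocyte genes 1480 ± 181, 1607 ± 62.5 and 1980 ± 384 FPKM in control, at 14 day PLX3397 and at 5 day recovery, and none of these genes was at 0 throughout a group. Their part in the member values was not tested.

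*Axl* was at 12.4, 13.3, 13.6, 13.2 and 12.9 FPKM in control SVZ, at 13.2, 13.4, 12.9, 14.3 and 13.4 at 14 day PLX3397, and at 12.4, 12.9, 11.2, 7.46 and 8.28 at 5 day recovery. The control and PLX3397 libraries overlap over a narrow range, and 2 of the recovery libraries (replicates 4 and 5) lie below all others. These 2 libraries also had the highest astrocyte marker sums, 2057 and 2618 FPKM against 1201 to 1806 FPKM in the other 13, and the part of astrocytes in the *Axl* values was not tested. *Mertk* was at 4.43, 6.09, 4.79, 4.85 and 4.79 FPKM in control, at 3.57, 3.93, 5.96, 3.89 and 4.49 at 14 day PLX3397, and at 3.35, 5.19, 6.04, 3.46 and 3.53 at 5 day recovery. *Tyro3* was the most abundant receptor by FPKM, at 25.6, 26.4, 26.2, 17.9 and 25.7 in control, at 20.9, 20.6, 27.6, 20.4 and 24.1 at 14 day PLX3397, and at 17.3, 17.6, 27.4, 10.99 and 16.9 at 5 day recovery. For *Mertk* and *Tyro3* all groups overlap. The order of the receptors in control tissue was *Tyro3* (57.1 ± 4.23% of the receptor FPKM), *Axl* (31.1 ± 3.20%) and *Mertk* (11.8 ± 1.48%; SD, n = 5), and it was the same at 14 day PLX3397 (55.9, 33.4 and 10.7%) and at 5 day recovery (54.4, 32.3 and 13.3%).

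Of the ligands, *Gas6* was at 126, 48.0, 49.6, 60.9 and 58.4 FPKM in control SVZ, at 51.5, 50.9, 47.8, 53.1 and 47.7 at 14 day PLX3397, and at 50.2, 58.9, 47.0, 44.6 and 60.3 at 5 day recovery. The value of 126 FPKM is that of the control library with choroid plexus RNA, and without it *Gas6* at 14 day PLX3397 was 92.6 ± 4.39% of control in place of 73.3 ± 3.47%. *Pros1* was at 4.62, 6.22, 6.68, 6.33 and 5.91 FPKM in control, at 4.56, 4.15, 4.55, 3.999 and 5.05 at 14 day PLX3397, and at 4.94, 6.09, 3.79, 8.98 and 7.01 at 5 day recovery. At 14 day PLX3397 all *Pros1* values lie below 4 of the 5 control values, and overlap with the lowest, which is again the library with choroid plexus RNA.

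By limma, 0 of 5 members were called at 14 day PLX3397 against control (1.26% of the 14151 tested genes were called), 0 of 5 at 5 day recovery against 14 day PLX3397 (0.325%) and 0 of 5 at 5 day recovery against control (1.27%). At an unadjusted p under 0.05 there were 1, 2 and 2 of 5, beside 6.12, 16.5 and 16.6% of all tested genes. The first was *Pros1* at 14 day PLX3397 (-0.34, SE 0.16, adjusted p = 0.764). At 5 day recovery, *Axl* differed from 14 day PLX3397 by -0.36 (SE 0.12, adjusted p = 0.198) and from control by -0.33 (SE 0.12, adjusted p = 0.201), *Pros1* from 14 day PLX3397 by 0.35 (SE 0.16, adjusted p = 0.283) and *Tyro3* from control by -0.45 (SE 0.17, adjusted p = 0.222). Without replicate 3 of the recovery group, *Tyro3* passed against control (-0.61, adjusted p = 0.0419), and over the alternatives it ranged from -0.610 to -0.300, and *Pros1* against 14 day PLX3397 from 0.219 to 0.483. *Axl* at 14 day PLX3397 differed from control by 0.04 (95% interval -0.21 to 0.29), and *Mertk* by -0.17 (-0.48 to 0.14). Over the alternatives this value of *Mertk* ranged from -0.267 to -0.107. Without control replicate 1, *Gas6* at 14 day PLX3397 differed by -0.10 (SE 0.10) in place of -0.34 (SE 0.19), and *Pros1* by -0.42 (adjusted p = 0.633).

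**Figure D5:**
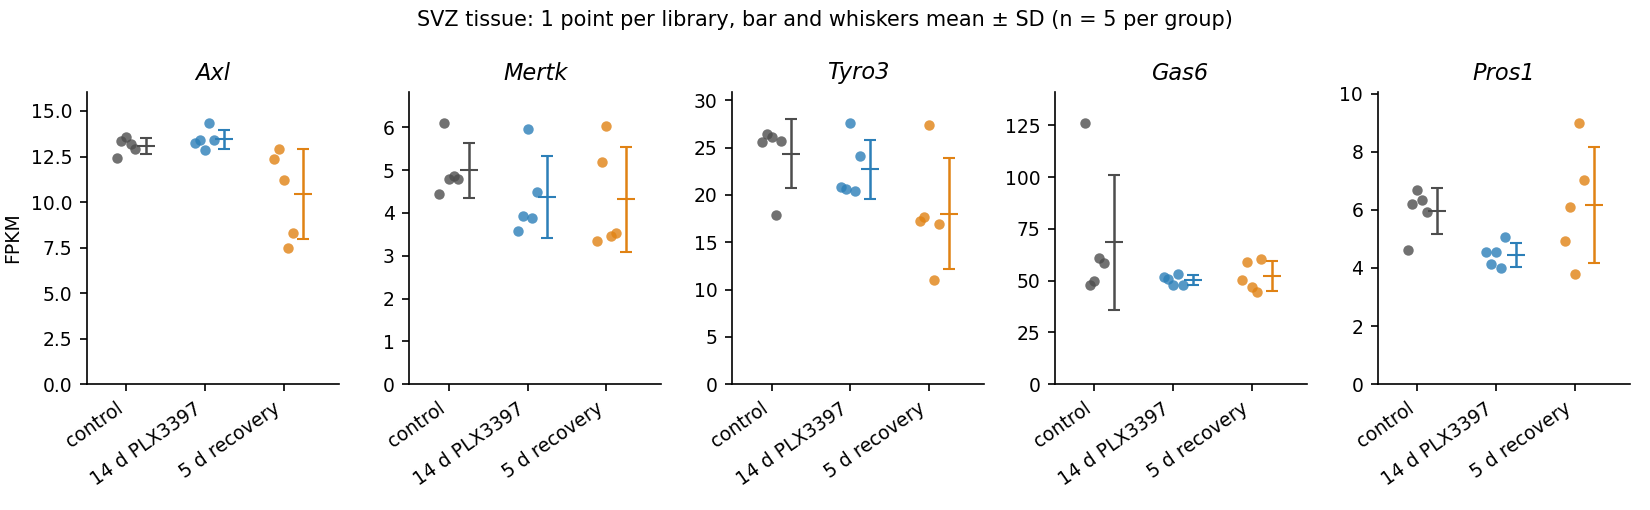
FPKM (vertical axis, linear from 0, scaled per gene) of the 5 genes in SVZ tissue of control mice (grey), at 14 day PLX3397 (blue) and at 5 day recovery (orange), n = 5 each, with a point per library and a bar with whiskers for mean ± SD. *Axl* lies between 12.4 and 14.3 FPKM in all control and PLX3397 libraries, and the control library at 126 FPKM in the *Gas6* panel is the one with choroid plexus RNA.

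The wider pathway was described with 9 lists of genes around the TAM system, with counts from the same fits. Levels are given as mean ± SD over the libraries of a group. The lists were chosen with earlier results of these data known, and genes named for the times after LPS after their values were seen. Their counts and p-values are therefore a description. The 18 listed phosphatidylserine receptors and bridging proteins, an alternative route to apoptotic cells, held 15 genes with values in SVZ tissue, of which 9 were tested. Of these, 3 were called lower at 14 day PLX3397 (1.21% of all genes were called lower), with a median log2 fold change of -0.08 over the list and 0.01 over all tested genes. *Trem2*, a lipid receptor of microglia, went from 22.9 ± 4.28 to 0.0818 ± 0.183 FPKM, and *Havcr2*, which encodes TIM-3, from 1.13 ± 0.379 to 0.0163 ± 0.0365 FPKM. Both reached 1 FPKM in 0 of the 5 libraries at 14 day PLX3397 and passed the filter on low values only through the control group, so their calls and the counts that hold them are a description. The same number was called lower at 5 day recovery against control (3 of 9, with *Trem2* and *Havcr2* again among them, against 1.09% of all genes), with *Trem2* at 0.722 ± 0.467 FPKM and the integrin subunit gene *Itgb5* at 3.67 ± 0.583 against 8.33 ± 2.63 FPKM (adjusted p = 0.0349). The phospholipase gene *Plcg2*, of the list of PI3K and AKT signaling, was the only called gene of 12 at both times, at 0.693 ± 0.175 and 0.545 ± 0.129 against 1.47 ± 0.395 FPKM, and it too passed the filter only through the control group. *Abca1*, a lipid transporter of the engulfment list, was lower at 5 day recovery (1 of 9), at 2.62 ± 0.263 against 4.11 ± 0.456 FPKM (adjusted p = 0.0101). The genes called in SVZ tissue all lay in these 3 lists and in the 2 comparisons with control.

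In WM repopulating cells against control microglia, limma called 0 of the 69 tested genes of the 9 lists at 0 hr (1.21% of all genes). In GLOBAL repopulated cells against control it called 0 of 73 (0% of all genes). In WM repopulating cells 1 of 69 was called at 6 hr (higher, where 0.213% of all genes were called higher). At 24 hr 3 of 69 were called (2 higher and 1 lower, where 1.68 and 2.29% of all genes were). The share at 24 hr, 4.35%, was near the 3.97% of all genes called, so these genes are given as single values and not as a result about the lists. *Cd36*, a scavenger receptor, was higher at 6 hr (4.94 ± 1.1 against 1.14 ± 0.652 FPKM, adjusted p = 0.00399). At 24 hr *Cd300lf*, an immunoglobulin family receptor for phosphatidylserine (213 ± 209 against 51.7 ± 20.7 FPKM, adjusted p = 0.0419), and *Havcr2* (124 ± 50.5 against 65.4 ± 5.89 FPKM, adjusted p = 0.0131) were higher. *Ggcx*, the carboxylase that matures both TAM ligands, was lower at 24 hr (9.98 ± 3.18 against 21.6 ± 2.99 FPKM, adjusted p = 0.00168).

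After LPS, the 9 tested genes of TAM and type I interferon feedback, through which the receptors restrain cytokine signaling, were called mostly in the upward direction. In control microglia 6 were called higher and 1 lower at 6 hr (21.4% of all genes were called higher), with a median of 1.15 against 0.01 over all genes, and in WM repopulating cells 5 higher and 1 lower (19.3% of all genes higher), with a median of 0.67. *Stat2* went from 7.67 ± 0.405 to 37.5 ± 10.1 FPKM in control microglia (adjusted p = 1.21e-07) and from 11.4 ± 1.96 to 43.6 ± 1.30 FPKM in WM repopulating cells (adjusted p = 5.79e-07). *Lgals3*, which encodes galectin-3 and is reported as a further ligand of MERTK, was the only tested gene of its list in these cells, and it went from 46.96 ± 13.5 to 244 ± 43.7 FPKM in control microglia (adjusted p = 2.1e-05) and from 69.2 ± 24.3 to 251 ± 69.3 FPKM in WM repopulating cells (adjusted p = 0.000263).

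The counts of the other lists stand beside 21.4% of all genes called higher and 21.1% called lower at 6 hr in control microglia, and 19.3 and 19.5% in WM repopulating cells, and a count near these shares is no result about its list. Of the 13 tested phosphatidylserine receptors and bridging proteins, 5 were called lower and 1 higher at 6 hr in control microglia, and 5 lower and 2 higher in WM repopulating cells. *Cd300lf* rose from 4.19 ± 2.98 to 254 ± 101 FPKM in control microglia (adjusted p = 1.69e-09), and *Trem2* was among those that fell, from 2251 ± 142 to 760 ± 48.2 FPKM (adjusted p = 1.61e-09). Of the 10 tested genes of engulfment machinery, 3 were lower and 3 higher in control microglia, and 3 were lower and 0 higher in WM repopulating cells, with *Elmo1*, a partner of the DOCK proteins, at 90.3 ± 3.85 and 39.995 ± 4.23 FPKM at 0 and 6 hr in control microglia. Of the 5 tested genes around shedding of the receptors, 2 were higher in each cell group. *Timp1*, an inhibitor of the proteases, was listed at 0 in all 3 control libraries at 0 hr and at 86.9 ± 33.7 FPKM at 6 hr (SD, n = 5). It is 1 of the 2 and passed the filter on low values only through libraries after LPS, so that count is a description, and *Rhbdf2*, a cofactor of the protease ADAM17, went from 4.27 ± 1.33 to 13.99 ± 10.8 FPKM (adjusted p = 0.00541). Of the 6 nuclear receptors known to control *Mertk* and *Axl*, 1 was higher and 1 lower in each cell group, namely *Nr1h3*, which encodes liver X receptor alpha (0.842 ± 0.807 to 19.8 ± 13.4 FPKM in control microglia, adjusted p = 0.000124), and *Rxra* (6.54 ± 1.95 to 3.45 ± 1.30 FPKM, adjusted p = 0.00726). In the vitamin K list 1 of 4 genes was higher and 1 lower in control microglia, and 1 higher and 2 lower in WM repopulating cells, where the higher gene of both (*Aifm2*) passed the filter only through libraries after LPS, with *Vkorc1*, the reductase that recycles vitamin K, at 124 ± 11.7 and 66.1 ± 9.30 FPKM at 0 and 6 hr in control microglia. Of 9 genes of phosphatidylserine exposure, 3 were higher and 1 lower in control microglia, and 2 higher and 2 lower in WM repopulating cells. Of 12 genes of PI3K and AKT signaling, 1 was higher and 1 lower in WM repopulating cells, and 1 was higher and 2 lower in control microglia, where 42.5% of all genes were called in either direction.

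Genes whose levels ran most alike to those of each member were sought by Pearson's r of log2(FPKM + 1) over the libraries of a table. Over the 24 sorted libraries of the WM and LPS experiment these were *Gm15964* (r = 0.88), *Lrrc16a*, *Myo5a*, *Gde1* and *Ier5* (r = 0.84) for *Axl*. For *Pros1* they were *Cysltr1* (r = 0.96), the microglial gene *Aif1* (r = 0.94), *Ech1*, *Cebpzos* and *Vwa5a*, and for *Gas6* they were *Nav3* (r = 0.90), *Dhrs7b*, *Erp29*, *Clta* and *Tmed3*. For *Mertk* they were a gene without a symbol (r = 0.97), *1810011H11Rik*, *Lrmp*, *Celf2* and *Traf3ip3* (r = 0.94). Among the members, *Gas6* and *Pros1* had r = 0.80, *Mertk* and *Pros1* r = 0.77 and *Mertk* and *Gas6* r = 0.68, whereas *Axl* had r of 0.16 with *Mertk*, 0.15 with *Pros1* and 0.00 with *Gas6*. These libraries share the times after LPS, so the values describe the groups as much as the genes.

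Over the 15 libraries of SVZ tissue, the closest were *Stk11* (r = 0.98), *Tomm6os*, *LOC100503956*, *Arnt2* and *Pitpnm1* for *Axl*, *Zbtb17* (r = 0.84), *Nfya*, *Epn2*, *Vipr1* and *Cdo1* for *Mertk*, and *Dnajb5* (r = 0.94), *Sh3rf3*, *Speg*, *Pcdhgc5* and *Ppp2r2c* for *Tyro3*. *Rdh5* (r = 0.98), *Slc12a4*, *Laptm4b*, *Dpp7* and *Cpq* were closest to *Gas6*, where the library with choroid plexus RNA is far from the others, and *Prpsap2* (r = 0.85), *Ffar3*, *Mon2*, *Pitpnc1* and *Hltf* to *Pros1*. In tissue *Axl* and *Tyro3* had r = 0.65 and *Mertk* and *Tyro3* r = 0.68, and *Pros1* ran opposite to *Axl* (r = -0.59) and *Tyro3* (r = -0.57). Over the 7 libraries of the GLOBAL experiment, the closest were *Tvp23b*, *Asah1* and *Smim26* for *Axl*, *Mptx1*, *Sf3b3* and *Ecsit* for *Mertk*, *Muc13*, *Gabbr2* and *Rbmx2* for *Tyro3*, and *Clstn1*, *Adcy8* and *Dusp5* for *Gas6*, with r of 0.95 to 0.996 over so few libraries.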

How the data were processed

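RNA sequencing of SVZ tissue (15 libraries) and of sorted CD11b+CD45int cells (24 libraries of the WM and LPS experiment, 7 of the GLOBAL experiment) was analysed from 3 tables of FPKM deposited by the authors. Per the labels, reads were aligned to mm10 with STAR and counted with featureCounts, and edgeR and limma were used downstream. The labels and the study's methods describe the library preparation differently, so the kit is not given here. The members and the gene lists were chosen with earlier results of these data known. FPKM were taken as deposited, and reads per library were recovered from the steps between low values, which gave whole reads for 99.9809, 99.9738 and 99.995% of genes. In 6 SVZ libraries nearly all recovered read numbers were even, and the numbers of these libraries were halved.

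Genes with at least 1 FPKM in at least 3 libraries of a table were tested with limma 3.58.1 (R 4.3.3) on log2(FPKM + 1), with the variance trend, all groups of the table in 1 fit, two-sided p-values, and Benjamini-Hochberg adjustment over all tested genes at 0.05. This scale understates changes of low genes. The fit was tested on simulated data. Named genes were the members, the genes with the highest Pearson's r to each member (5 for tables of 15 and 24 libraries, 3 for that of 7) and, per list and comparison between groups of cells or tissue, at most the 2 called genes with the largest change; list genes named for the times after LPS were chosen after their values were seen. The genes most like *Pros1* in the GLOBAL experiment are not reported here. Symbols altered to dates in the SVZ table (25) were restored by gene identifier. Alternatives were a pseudocount of 0.1, no filter, quantile normalization, no trend, only the groups compared, the replicate number as a block, and leaving out each library.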

Additional observations from a re-analysis of the deposited data

Results flagged for a closer look

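In groups of 4 or 5 libraries, 4 of the 40 sets of member values held a library with a gap to the others beyond Dixon's 95% limit, where chance gives about 1 in 20. In control SVZ tissue, *Mertk* was at 6.09 FPKM in replicate 2 against 4.43 to 4.85 in the others, and *Tyro3* was at 17.9 FPKM in replicate 4 against 25.6 to 26.4. *Gas6* was at 126 FPKM in control SVZ replicate 1, the library with choroid plexus RNA, against 48.0 to 60.9 FPKM. In WM repopulating cells at 0 hr, *Gas6* was at 56.8 FPKM in replicate 3 against 80.6 to 84.1 FPKM.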

How the results depend on the processing

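Of 229 alternative counts of called members, 216 were within 1.5 times the reported count. Of 64 member results, 46 kept direction and call under every alternative. Where *Axl* was not tested, this means the same direction and a shift smaller than the largest SD of the groups compared. Leaving out 1 library at a time, the count at 5 day recovery against control in SVZ tissue ranged from 0 to 1, and those in WM repopulating cells from 1 to 2 at 6 hr against 0 hr and from 0 to 2 at 24 hr against 6 hr. The sign turned for small differences, none of them called. With quantile normalization, *Mertk* at 5 day recovery against 14 day PLX3397 was 0.0390 in place of -0.03. Without 1 library at a time, the log2 differences ranged from -0.136 to 0.0708 for *Mertk* and from -0.00778 to 0.0986 for *Gas6* at 5 day recovery against 14 day PLX3397, from -0.124 to 0.140 for *Pros1* at 5 day recovery against control, from -0.0500 to 0.152 for *Pros1* in WM repopulating cells against control at 0 hr, from -0.138 to 0.435 for *Mertk* at 6 hr, and from -0.0707 to 0.502 for *Mertk* in the difference of responses at 6 hr. They ranged from -0.210 to 0.0689 for *Axl* in control microglia at 6 hr, from -0.121 to 0.059996 for *Axl* in WM repopulating cells at 24 hr against 0 hr, and from -0.169 to 0.451 for *Gas6* in the difference of responses at 24 hr. Their cause was not tested. *Axl* in WM repopulating cells at 0 hr was 2.49 with a pseudocount of 0.1. Depth limits *Tyro3* in the GLOBAL experiment, where it rested on 4 to 26 reads per library.

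With the replicate number as a block, *Axl* in control microglia at 6 hr was 0.115 and *Gas6* in the difference of responses at 24 hr -0.0225. Whether the numbers pair the libraries is not settled. Deviations of same-numbered libraries of different groups correlated at -0.155 to 0.486 in SVZ tissue, where other pairs had -0.480 to 0.289. In the WM and LPS experiment they correlated at -0.190 to 0.266, against -0.276 to 0.312 for other pairs. In the GLOBAL experiment they correlated at 0.0562 to 0.137, against -0.141 to 0.0910 for other pairs. In the same order, 4 of 15, 9 of 24 and 4 of 7 libraries correlated best with their own number. The block moved the number of genes called in the GLOBAL experiment from 0 to 55, and in the differences of responses from 3 to 0 at 6 hr and from 11 to 6 at 24 hr.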
